A study of Rattus norvegicus with 57 samples.

Results

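Genes of hepatic fatty acid synthesis were followed in rat liver during and after dosing with methapyrilene, an antihistamine that is toxic to rat liver. The 10 genes were Srebf1, Mlxipl, Pklr, Acly, Acaca, Fasn, Thrsp, Me1, Scd and Elovl6, taken by name from the 10725 genes that could be tested. They are covered by 18 of the 31099 probe sets of the Affymetrix Rat 230 2.0 array, and for each gene the probe set with the highest mean log2 signal was used. Livers came from 57 male Han Wistar rats, 8 to 10 weeks of age at the start, housed singly, with 1 array for each animal. Rats received methapyrilene in carboxymethylcellulose by mouth every day at 30 or 80 mg/kg body weight, and control rats received the vehicle (0 mg/kg). Livers were taken on day 4, 8 or 15, or on day 24, which followed 14 days of dosing and 10 days without it. Control livers numbered 5 on days 4, 8 and 15 and 4 on day 24. At 30 mg/kg there were 5 livers on days 4, 8 and 15 and 4 on day 24, and at 80 mg/kg there were 4 on day 4 and 5 on days 8, 15 and 24. All animals were of 1 sex and strain, and the liver was measured as a homogenate.

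The liver turns surplus carbohydrate into fat. Pyruvate kinase feeds carbon from glycolysis to the mitochondria, ATP citrate lyase returns it to the cytosol as acetyl-CoA, acetyl-CoA carboxylase and fatty acid synthase build palmitate from it with NADPH, and elongase and desaturase enzymes turn palmitate into oleate. Transcription of these enzymes is raised in the fed state by SREBP-1c, the insulin-responsive product of Srebf1, and by ChREBP, the glucose-responsive product of Mlxipl, and falls in fasting.

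The promoter of Pklr is shown because this gene had the smallest adjusted p of the 10 on each dosing day at the higher dose, those of Thrsp and Scd because they fell with it, and that of Me1 because it did not fall. Each is the 250 bases before an annotated start in RefSeq's table for assembly GRCr8, read 5′ to 3′ on the gene's strand. Those of Pklr and Scd lie inside the annotated spans of their genes, 176840779 to 176849637 and 253218968 to 253232101. Those of Thrsp and Me1 lie just outside the spans of theirs. Capitals mark matches, on either strand, to 6 motifs that were searched: the E-box CACGTG, the sterol regulatory element TCACNCCAC, the CCAAT box, the GC box GGGCGG, the antioxidant response element TGACNNNGC and the carbohydrate response element, which is a pair of E-box-like elements set apart by a short spacer. Pklr lies at chr2:176841014-176841263 on the plus strand, Thrsp at chr1:161138965-161139214, Scd at chr1:253231732-253231981 and Me1 at chr8:96540245-96540494, the last 3 on the minus strand.
Pklr: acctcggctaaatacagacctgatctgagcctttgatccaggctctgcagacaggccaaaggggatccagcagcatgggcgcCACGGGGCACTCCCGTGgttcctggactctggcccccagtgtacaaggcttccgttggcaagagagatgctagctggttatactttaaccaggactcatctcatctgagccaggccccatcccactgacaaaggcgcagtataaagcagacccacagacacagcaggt
Thrsp: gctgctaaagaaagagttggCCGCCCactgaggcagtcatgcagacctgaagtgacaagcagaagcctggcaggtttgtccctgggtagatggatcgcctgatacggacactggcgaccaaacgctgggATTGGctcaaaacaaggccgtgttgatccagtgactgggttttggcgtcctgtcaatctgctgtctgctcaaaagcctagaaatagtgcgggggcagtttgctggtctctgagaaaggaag
Scd: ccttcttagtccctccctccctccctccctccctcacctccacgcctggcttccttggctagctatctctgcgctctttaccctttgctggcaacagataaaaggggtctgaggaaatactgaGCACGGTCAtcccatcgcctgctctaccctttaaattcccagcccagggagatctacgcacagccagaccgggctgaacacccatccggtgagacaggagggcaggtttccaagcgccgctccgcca
Me1: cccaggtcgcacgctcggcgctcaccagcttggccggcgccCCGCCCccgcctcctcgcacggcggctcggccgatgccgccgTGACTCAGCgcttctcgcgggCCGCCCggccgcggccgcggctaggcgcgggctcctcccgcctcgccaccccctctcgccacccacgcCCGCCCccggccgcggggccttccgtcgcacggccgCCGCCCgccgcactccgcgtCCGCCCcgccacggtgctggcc

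The Pklr window held a full carbohydrate response element, CACGGGGCACTCCCGTG, from -168 to -152 of the start, the kind of element at which ChREBP is known to act on the liver pyruvate kinase promoter. Only 7 of the 33469 promoters in the table held a match, which is 0.0209%. The Me1 window held the antioxidant element TGACTCAGC at -167 and 5 GC boxes, and 10.1% and 30.5% of all promoters held these motifs. The Scd window held the antioxidant motif on the other strand, and the Thrsp window held a GC box and a CCAAT box, a motif present in 34% of promoters. The E-box, present in 5.59% of promoters, and the sterol element, in 0.974%, had no match in the window of any of the 7 genes with an entry. Of the 6 motifs as spelled above, windows of Srebf1, Acly and Mlxipl held only CCAAT or GC boxes. Sterol elements and E-boxes of other spellings were not searched, so a missing match does not show that a gene lacks them. A match describes the letters and was not tied to the measurements.

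At 80 mg/kg most of the synthesis genes were lower than in control livers on each dosing day, and after the 10 days without drug none passed the test. Of the 10 genes, 7 fell and none rose on day 4, 7 fell and 1 rose on day 8, and 7 fell and 1 rose on day 15, at a Benjamini-Hochberg adjusted p of limma under 0.05 over all 10725 genes. Falls made up 9.19%, 16.6% and 20.5% of all genes on days 4, 8 and 15, and rises 18.3%, 34.2% and 38.8%. The median change of the 10 genes was -0.60, -0.97 and -0.87 on the log2 scale on the 3 dosing days, beside 0.08, 0.15 and 0.16 for all genes. Groups did not overlap, with each treated liver below each control liver, in 5, 5 and 8 of the 10 genes on days 4, 8 and 15, where 6.62%, 11.3% and 14.6% of all genes did so. Pklr, Thrsp, Scd, Srebf1, Acly and Mlxipl fell on all 3 dosing days, Fasn on days 8 and 15 and Acaca on day 4, while Elovl6 rose on days 8 and 15. The arrays measure RNA from a whole piece of liver, so fewer cells that express a gene and less of its RNA in each cell cannot be told apart.

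**Figure D1:**
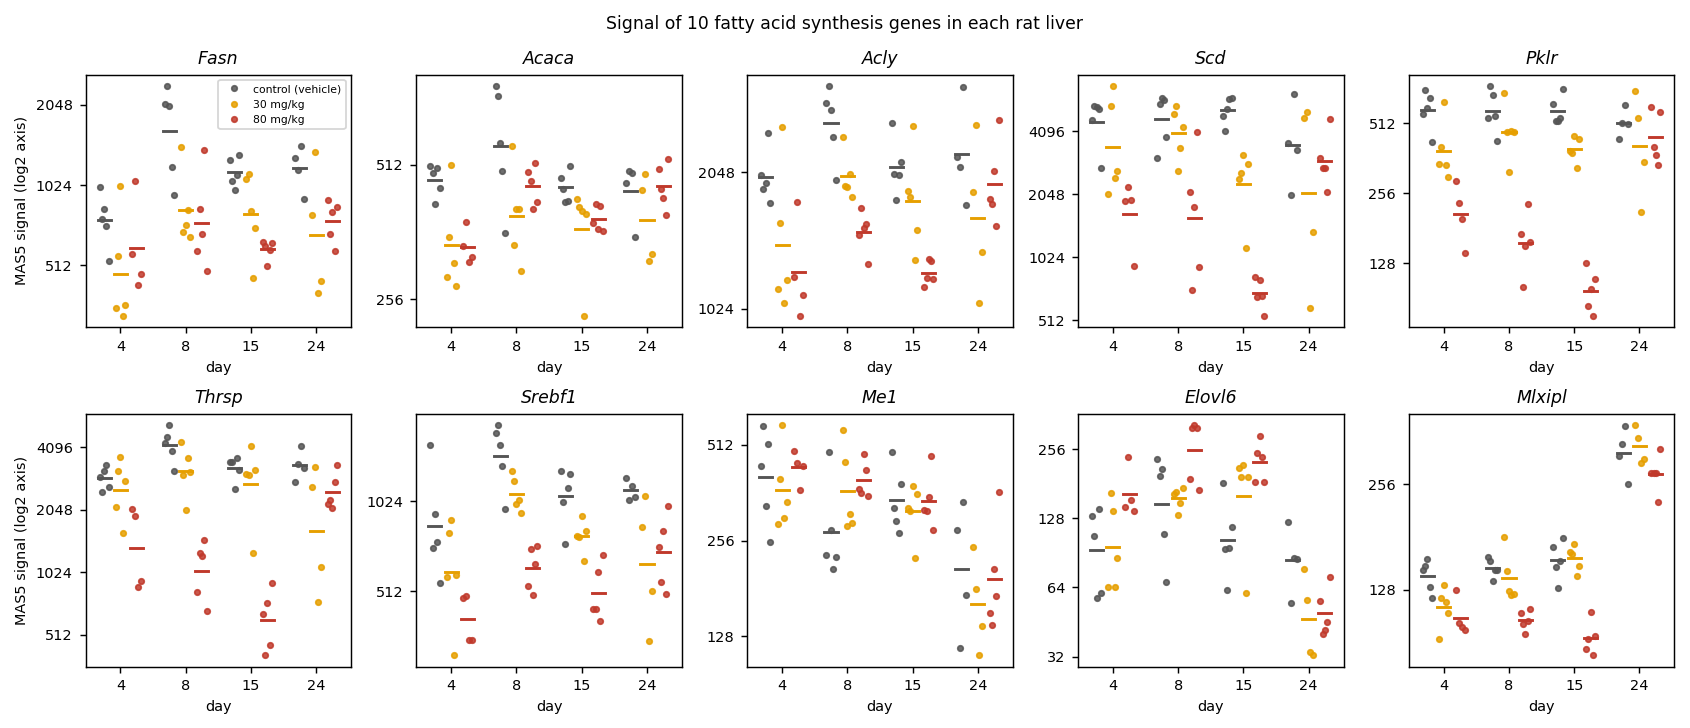
Signal (MAS5 units, log2 axis) of each of the 10 genes in each of the 57 livers by day, with control, 30 mg/kg and 80 mg/kg from left to right within a day and a line at each group's mean of log2 signals. On day 15 the 5 livers at 80 mg/kg lie below all 5 control livers in 8 genes and above them in Elovl6.

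**Figure D2:**
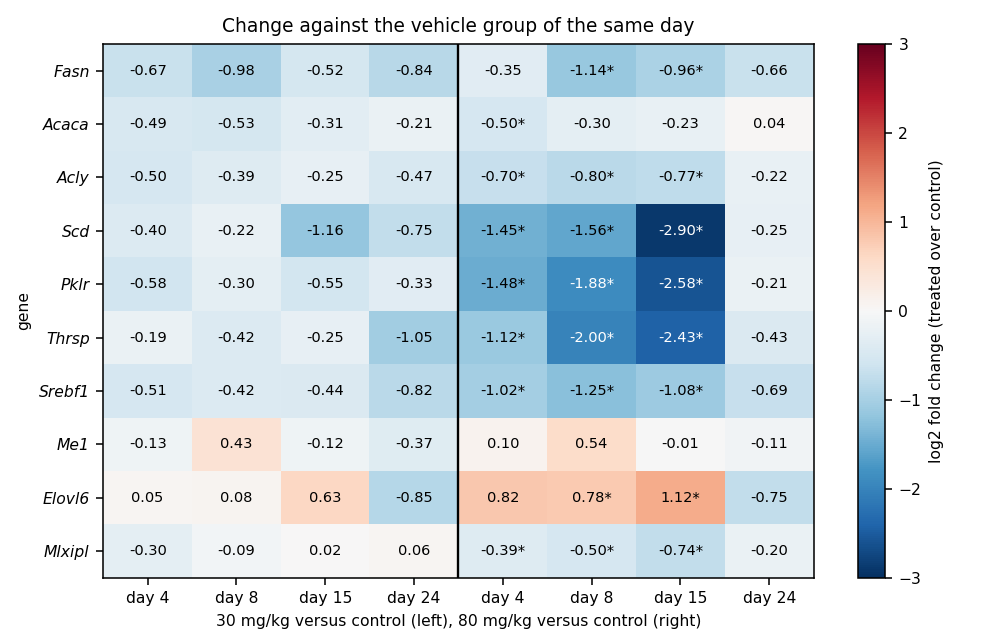
Log2 fold change of each gene against the vehicle group of the same day, at 30 mg/kg on the left and 80 mg/kg on the right, with an asterisk at an adjusted p under 0.05. Changes at 80 mg/kg reach -2.90 in Scd on day 15, and no value at 30 mg/kg or on day 24 passed.

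Srebf1 encodes the transcription factor SREBP-1c, which drives most of the other genes described here. On day 15 its signal was 447, 447, 594, 408 and 678 in livers at 80 mg/kg, against 1289, 1015, 735, 1132 and 1261 in control livers. The highest treated liver lay below the lowest control liver. Over days 4, 8 and 15 the log2 change was -1.02 ± 0.25, -1.25 ± 0.24 and -1.08 ± 0.24 (SE), with adjusted p of 0.00175, 2.08e-05 and 0.000125. The level was thus 49.2%, 42.1% and 47.4% of control.

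Mlxipl encodes ChREBP, the factor through which glucose raises glycolytic and lipogenic genes. Its signal on day 15 was 86.6, 92.4, 111, 83.3 and 94.2 in livers at 80 mg/kg, against 170, 149, 129, 154 and 179 in control livers, again without overlap. Over days 4, 8 and 15 the log2 change was -0.39 ± 0.11, -0.50 ± 0.11 and -0.74 ± 0.11, with adjusted p of 0.00627, 0.000103 and 3.63e-08. The spread between animals was small, and the SD of the 80 mg/kg group on day 8 was 6.53 around a mean of 104.8.

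Pklr, liver pyruvate kinase and a textbook target of ChREBP, had the smallest adjusted p of the 10 genes on each dosing day. On day 4 it read 289, 233, 198 and 141 in livers at 80 mg/kg, against 562, 713, 599, 659 and 425 in control livers. On day 8 the values were 170, 101, 151, 230 and 158 at 80 mg/kg, against 539, 742, 681, 549 and 430 in control livers. On day 15 they were 128, 83.5, 98.6, 75.9 and 109 at 80 mg/kg, against 618, 523, 526, 538 and 720 in control livers. No treated liver reached the lowest control liver on any dosing day. The log2 change was -1.48 ± 0.24, -1.88 ± 0.23 and -2.58 ± 0.23 on days 4, 8 and 15, with adjusted p of 5.12e-06, 1.54e-09 and 5.74e-14. On day 15 the level was 16.8% of control, with a 95% interval of -3.03 to -2.12 on the log2 scale. Control livers on the same 3 days averaged 591.4, 588.3 and 585.

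Acly, ATP citrate lyase, which makes cytosolic acetyl-CoA from citrate, fell on all 3 dosing days. On day 15 it read 1146, 1197, 1317, 1306 and 1191 in livers at 80 mg/kg, against 2625, 2032, 1779, 2015 and 2153 in control livers, with no overlap. Over days 4, 8 and 15 the change was -0.70 ± 0.21, -0.80 ± 0.19 and -0.77 ± 0.19, with adjusted p of 0.008, 0.000554 and 0.000562.

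Acaca, acetyl-CoA carboxylase, which makes malonyl-CoA in the committed step, passed on day 4. On that day it read 337, 380, 309 and 318 in livers at 80 mg/kg, against 508, 490, 418, 503 and 454 in control livers, a fall of 0.50 ± 0.17 with an adjusted p of 0.0255. That call was lost without 80 mg/kg replicate 4 or 5 (adjusted p = 0.0724 and 0.0708) and with the mean of its 2 probe sets (adjusted p = 0.133), of which the second averaged 13.3 at 80 mg/kg and 14.5 in control livers on day 4 and exceeded the median signal of all values, 17.09, on 13 of the 57 arrays. On day 8 the change was -0.30 ± 0.16 with an adjusted p of 0.125, and it passed at a common array median (-0.52, adjusted p = 0.0155), with the mean of the probe sets (-0.41, adjusted p = 0.0205) and without control replicate 5 (-0.46, adjusted p = 0.0152). On day 15 the 5 treated livers, at 364 to 417, all lay below the 5 control livers, at 421 to 509, but the change was -0.23 ± 0.16 with an adjusted p of 0.215. A fit to the groups compared alone gave the same change an adjusted p of 0.0129.

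Fasn, fatty acid synthase, fell on days 8 and 15. On day 15 it read 629, 607, 507, 583 and 620 in livers at 80 mg/kg, against 1275, 1059, 981, 1114 and 1333 in control livers. The treated livers lay within a narrow band, with a mean of 589.2 ± 49.0 (SD, n = 5), against 1152 ± 148 (SD, n = 5) in control livers. The change was -0.96 ± 0.29 with an adjusted p of 0.00422, and on day 8 it was -1.14 ± 0.29 with an adjusted p of 0.00105. On day 4 it was -0.35 ± 0.31, with an adjusted p of 0.442 and overlapping groups.

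Thrsp (Spot 14) encodes a small nuclear and cytosolic protein that is induced by thyroid hormone and carbohydrate and promotes lipogenesis. On day 4 it read 2066, 1919, 869 and 927 in livers at 80 mg/kg, against 2959, 2510, 3144, 3370 and 2635 in control livers. On day 15 it read 644, 410, 731, 457 and 908 at 80 mg/kg, against 3488, 3503, 2583, 3647 and 3190 in control livers. The groups did not overlap on any dosing day. The change was -1.12 ± 0.31, -2.0 ± 0.29 and -2.43 ± 0.29 on days 4, 8 and 15, with adjusted p of 0.00514, 1.32e-07 and 5.29e-10, and the day 15 level was 18.5% of control.

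Scd, the stearoyl-CoA desaturase that makes oleate, had the largest fall of the 10 genes on day 15. On day 8 it read 2098, 709, 1778, 4056 and 918 in livers at 80 mg/kg, against 3039, 5537, 5862, 5789 and 3825 in control livers, and the liver at 4056 overlapped with the control group. On day 15 it read 824, 657, 799, 670 and 537 at 80 mg/kg, against 4857, 4103, 5194, 5838 and 5913 in control livers. The overlap was gone and the treated livers were close to each other, at a mean of 697.4 ± 117 (SD, n = 5). The change was -1.45 ± 0.43, -1.56 ± 0.40 and -2.90 ± 0.40 on days 4, 8 and 15, with adjusted p of 0.00798, 0.00104 and 1.73e-08. The day 15 level was 13.4% of control. The day 4 call was lost without 80 mg/kg replicate 5, the lowest of the 4 livers (adjusted p = 0.0618).

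Elovl6, the elongase that turns palmitate into stearate and a known target of SREBP-1c in mice, went the other way. On day 15 it read 184, 247, 293, 235 and 183 in livers at 80 mg/kg, against 182, 93.6, 62.4, 95.0 and 117 in control livers. Each treated liver was above each control liver, the lowest by a small margin, where 30% of all genes showed such a separation. The rise was 1.12 ± 0.33 with an adjusted p of 0.00271, or 2.18-fold. On day 8 the rise was 0.78 ± 0.33 with an adjusted p of 0.0421, a call that ended under quantile normalization (adjusted p = 0.0829), at a common array median (0.178), without the filter on low signals (0.0527), with the mean of the 2 probe sets (0.0543), in a fit to the groups compared alone (0.0674) and without any of 5 single arrays. On day 4 the change was 0.82 ± 0.35 with an adjusted p of 0.0702.

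Me1, malic enzyme, which supplies NADPH for the synthesis of palmitate, did not pass the test at either dose on any day. On day 15 it read 319, 318, 350, 471 and 277 in livers at 80 mg/kg, against 484, 323, 295, 271 and 385 in control livers. The groups overlapped, and the change was -0.01 ± 0.26 with a 95% interval of -0.53 to 0.50. Falls of the size seen in Pklr, Thrsp and Scd on that day lie outside this interval. On day 8 the change was 0.54 ± 0.26 with an adjusted p of 0.0732, and it passed without control replicate 2 (0.75, adjusted p = 0.0145), with the actin ratio as a covariate (0.69, adjusted p = 0.0232) and in a fit to the groups compared alone (adjusted p = 0.0394). Me1 is also known in mice as a target of Nrf2, the factor of the antioxidant element. Srxn1, a core Nrf2 target, rose on day 15 to 519 ± 99.1 at 80 mg/kg, against 76.7 ± 7.96 in control livers (SD, n = 5 each), a change of 2.74 ± 0.20 with an adjusted p of 6.44e-17, while Me1 kept to the control range.

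Further probe sets were available for 7 of the genes, and at 80 mg/kg they ran in the direction of the main probe set on day 15 in all but Me1. The second probe set of Pklr changed by -2.90 ± 0.28, that of Fasn by -1.64 ± 0.36 and that of Srebf1 by -1.01 ± 0.23, and the others of Thrsp by -2.60 ± 0.31 and -2.76 ± 0.36, all with adjusted p under 0.05. The second probe sets of Elovl6 (0.69, adjusted p = 0.0884), Acaca (-0.25, adjusted p = 0.386) and Me1 (0.26, adjusted p = 0.532) did not pass. The mean of both Elovl6 probe sets passed on day 15 (0.91, adjusted p = 0.0142).

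No synthesis gene passed the test at 30 mg/kg on days 4, 8, 15 or 24. Few genes did so at this dose, with 0.783%, 0.233%, 4.6% and 0.0932% of all genes called in either direction on those days. An unadjusted p under 0.05 was reached by 6, 3, 2 and 5 of the 10 genes and by 13.8%, 10.7%, 18.7% and 10.2% of all genes, and the changes were negative in 9, 8, 8 and 9 of them. Their median was -0.44, -0.34, -0.28 and -0.61, beside 0.01, 0.00, 0.01 and 0.01 for all genes. Scd came closest during dosing, on day 15, at 2425, 2570, 3142, 1129 and 2861 in livers at 30 mg/kg, against 4857, 4103, 5194, 5838 and 5913 in control livers. These groups did not overlap, and the change was -1.16 ± 0.40 with an adjusted p of 0.0802. Pklr was likewise separated on that day, at 329 to 450 in livers at 30 mg/kg against 523 to 720 in control livers, with a change of -0.55 ± 0.23 and an adjusted p of 0.16. A fit to these 2 groups alone called both (adjusted p = 0.0112 for Scd and 0.0101 for Pklr), where 252 of all 10725 genes fell and 322 rose. A separation of this kind was found in 2.85% of all genes.

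Between the doses, Pklr and Thrsp were lower at 80 than at 30 mg/kg on day 4. Scd, Pklr, Thrsp, Srebf1 and Mlxipl were lower on day 8, and the same 5 with Acly on day 15. All genes called lower between the doses made up 6.84%, 14.6% and 18.3% on the 3 days. On day 15 the difference was -2.18 ± 0.29 in Thrsp, -2.02 ± 0.23 in Pklr, -1.73 ± 0.40 in Scd, -0.76 ± 0.11 in Mlxipl, -0.63 ± 0.24 in Srebf1 and -0.53 ± 0.19 in Acly. By the probe sets used, Fasn and Acaca did not pass between the doses on any day, and on day 15 Fasn averaged 589.2 at 80 mg/kg and 838.5 at 30 mg/kg. The 95% interval of its difference was -1.03 to 0.15, and that of Acaca was -0.25 to 0.41. The second probe set of Fasn did pass on day 15, with a mean of 134 at 80 mg/kg and 269 at 30 mg/kg (-0.93, adjusted p = 0.0263). That of Elovl6 passed on day 8, with a mean of 66.5 at 80 mg/kg and 31.8 at 30 mg/kg (adjusted p = 0.0175). The main probe set of Elovl6 passed on day 8 only in a fit to the groups compared alone (adjusted p = 0.00855) or without 80 mg/kg replicate 5 (adjusted p = 0.0404). The mean of its probe sets also passed (0.85, adjusted p = 0.0286). On day 4 the call of Thrsp ended without 30 mg/kg replicate 2 or 3 or 80 mg/kg replicate 4 or 5, and that of Pklr without 80 mg/kg replicate 5. The call of Thrsp also ended under quantile normalization (adjusted p = 0.0647) and in a fit to the groups compared alone (adjusted p = 0.0565). On day 15 the call of Acly ended under quantile normalization (adjusted p = 0.211), with the actin ratio as a covariate (-0.41, adjusted p = 0.0547) and without 30 mg/kg replicate 3, and that of Srebf1 without that array or 80 mg/kg replicate 4. On day 8 Acly passed at a common median (-0.61, adjusted p = 0.0188) and in a fit to the groups compared alone (adjusted p = 0.00402).

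Differences between days were tested on the effect against control. From day 4 to day 15 the effect of 80 mg/kg became larger in Pklr by -1.09 ± 0.33 and in Thrsp by -1.31 ± 0.43, with adjusted p of 0.012 and 0.0191, where 10.1% of all genes were called in that direction and 24.4% in either. In Scd the difference was -1.45 ± 0.58 with an adjusted p of 0.0635, and it passed in a fit to the groups compared alone (adjusted p = 0.0023) and without 80 mg/kg day 4 replicate 5 (-1.72, adjusted p = 0.0298). In Mlxipl it was -0.35 ± 0.15 with an adjusted p of 0.0958, and it passed under quantile normalization (-0.47, adjusted p = 0.0264) and without control or 80 mg/kg day 15 replicate 3 (adjusted p = 0.0466 and 0.0493). In Srebf1 it was -0.05 ± 0.35 and in Acly -0.07 ± 0.28, both far from the threshold. With the ratio of the 3′ to the 5′ actin probe sets as a covariate, a measure of RNA integrity, neither Pklr (-0.85, adjusted p = 0.096) nor Thrsp (-1.04, adjusted p = 0.119) passed, and the call of Thrsp also ended without 80 mg/kg day 4 replicate 2 or 3. On day 4 that ratio ran from 4.12 to 6.02 in livers at 80 mg/kg, against 3.80 to 5.03 in control livers, and on day 15 from 3.77 to 4.93, against 5.02 to 6.37, without overlap. Its part in the result was not tested further.

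After 10 days without dosing none of the synthesis genes passed the test at 80 mg/kg on day 24, where 10.2% of all genes did so, 3.08% falling and 7.15% rising. Their median change was -0.23, beside 0.04 for all genes, and the changes were negative in all but Acaca. Between the doses none passed on that day either, where 6.77% of all genes did. An unadjusted p under 0.05 was reached by 3 of the 10 genes against control and by 1 between the doses, and by 26.2% and 23.5% of all genes. Pklr read 601, 404, 375, 339 and 574 in livers that had received 80 mg/kg, against 439, 512, 617 and 507 in control livers. Scd read 3061, 2721, 2721, 2107 and 4657 in livers that had received 80 mg/kg, against 3580, 2027, 6170 and 3336 in control livers. Both groups overlapped in each gene, with changes of -0.21 ± 0.24 and -0.25 ± 0.43. The change in effect from day 15 to day 24 passed upward in Scd (2.65 ± 0.58, adjusted p = 0.000209), Pklr (2.37 ± 0.33, adjusted p = 7.46e-08), Thrsp (2.0 ± 0.43, adjusted p = 0.000137) and Mlxipl (0.54 ± 0.15, adjusted p = 0.00376), and downward in Elovl6 (-1.88 ± 0.47, adjusted p = 0.00109). In all, 42.7% of genes passed this test, 16.6% upward and 26.1% downward. In Fasn, Acaca, Acly, Srebf1 and Me1 the difference did not pass. That of Acly did pass in a fit to the groups compared alone (0.56, adjusted p = 0.0395). It also passed without control day 24 replicate 4 (0.72, adjusted p = 0.041).

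Srebf1 and Fasn were the genes in which livers of the 80 mg/kg group still lay below all control livers on day 24, a separation found in 3.79% of all genes. Srebf1 read 719, 550, 811, 503 and 985 in livers that had received 80 mg/kg, against 1227, 1029, 1150 and 1060 in control livers. Fasn read 899, 669, 812, 581 and 848 in livers that had received 80 mg/kg, against 1296, 1170, 1435 and 912 in control livers. The changes were -0.69 ± 0.25 (adjusted p = 0.071) and -0.66 ± 0.31 (adjusted p = 0.166). With all arrays set to a common median, Srebf1 (-0.94), Fasn (-0.91), Elovl6 (-1.01) and Mlxipl (-0.45) passed, on a scale that moved the median change of all genes on that day to -0.21, compared with 0.04 on the deposited scale. At that common median 3359 of all 10725 genes fell and 267 rose. A fit to the groups compared alone called Srebf1 and Fasn (adjusted p = 0.0379 and 0.03), where 174 of all genes fell and 570 rose. Srebf1 also passed without 80 mg/kg replicate 5 (adjusted p = 0.0351). Elovl6, which had risen during dosing, read 56.1, 39.95, 41.9, 45.4 and 71.3 in livers that had received 80 mg/kg, against 124, 54.6, 85.9 and 85.4 in control livers, a change of -0.75 ± 0.35 with an adjusted p of 0.151. At 30 mg/kg on day 24 the largest change was in Thrsp, at 2630, 3314, 738 and 1090 in livers that had received 30 mg/kg, against 2807, 3415, 4168 and 3244 in control livers, or -1.05 ± 0.33 with an adjusted p of 0.201, and it passed without 30 mg/kg replicate 2 (-1.39, adjusted p = 0.0467). No gene passed in the change of the 30 mg/kg effect from day 15 to day 24, where 1.09% of all genes did, and 1 gene reached an unadjusted p under 0.05, as did 14.5% of all genes.

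Measures of the arrays themselves also moved with day and dose. The actin ratio was 5.84 to 6.76 in livers that had received 80 mg/kg on day 24, 6.54 to 9.30 in those that had received 30 mg/kg and 6.04 to 9.76 in control livers of that day, and on the earlier days all livers lay between 3.77 and 6.37. On day 15 each liver at 80 mg/kg, at 3.77 to 4.93, had a lower ratio than each control liver, at 5.02 to 6.37. With the ratio as a covariate 7 synthesis genes fell and 1 rose on that day, where 2064 of all 10725 genes fell and 3857 rose. The changes were -2.57 in Scd, -2.42 in Pklr, -2.26 in Thrsp and -0.53 in Acly. Since the ratios of these 2 groups did not overlap, the fit cannot fully tell the ratio and the dose apart on that day. The median signal of an array was 17.6 to 19.5 in the 80 mg/kg group on day 8, against 15.7 to 16.4 in control livers, and 16.8 to 19.2 on day 15, against 15.5 to 16.3. On day 24 it was 18.9 to 21.1, against 15.9 to 17.8. The groups did not overlap on any of these days. Their part in the values was not tested beyond the covariate fit and the other scalings.

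Among vehicle livers, 3 of the 10 genes differed between days by a moderated F test across days 4, 8, 15 and 24 (24.7% of all genes passed). Mlxipl averaged 140.6 ± 14.5, 147.8 ± 8.90, 156.4 ± 19.5 and 318.5 ± 49.97 on days 4, 8, 15 and 24 (SD, n = 5, 5, 5 and 4), so that its day 24 level stood 1.17 ± 0.11 above that of day 4 on the log2 scale, with an adjusted p of 2.51e-11. The lowest control liver of day 24, at 256, was above all control livers of the earlier days, the highest of which read 179. Me1 was lower on day 24 than on day 4 by -0.96 ± 0.27 (adjusted p = 0.00844), and Fasn was higher on day 8 than on day 4 by 1.11 ± 0.29 (adjusted p = 0.0234). Without control day 4 replicate 4, only Mlxipl passed the F test, and without control day 8 replicate 5 there were 5 such genes. The call of Fasn also ended without any of 4 other control arrays, without control day 4 replicate 5 for one (adjusted p = 0.0865), and that of Me1 without any of 3 others, without control day 24 replicate 3 for one (adjusted p = 0.14). With the actin ratio as a covariate Fasn did not pass the F test (adjusted p = 0.0537). Me1 did not pass it with the mean of its probe sets (adjusted p = 0.245). A fit to the control livers alone lost Me1 (adjusted p = 0.0838) and called Thrsp (adjusted p = 0.031).

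The clock gene Nr1d1, a daily repressor with a sharp peak in liver, differed among the same control livers. It averaged 160.8 ± 43.6, 13.5 ± 5.34, 17.9 ± 6.82 and 15.9 ± 9.09 on days 4, 8, 15 and 24. Of 11 clock genes, 6 passed between control livers of day 8 and day 4, 5 between day 15 and day 4 and 7 between day 24 and day 4, where 3.38%, 3.51% and 20.5% of all genes did. At 80 mg/kg Nr1d1 averaged 140.2 ± 63.8 on day 4 and 33.4 ± 17.3 on day 15. The hour of sacrifice is not given in the sources used here. Control levels of Fasn and Srebf1 were lowest on day 4 and highest on day 8, and whether they followed the clock genes was not tested.

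Within groups the 10 genes varied together from animal to animal. Over the 57 arrays, deviations from the group mean correlated positively in all 45 pairs of the 10 genes, with a median Pearson r of 0.591 and a range of 0.347 to 0.83. Fasn and Acaca had the highest value, Fasn and Acly followed at 0.807, and Scd and Pklr at 0.803. Elovl6 and Mlxipl had the lowest. The median correlation of each member with all genes lay between -0.047 and -0.0155. Each point is 1 array and both genes of a pair come from the same RNA and scaling, so these values describe the livers and carry no test.

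Over the 12 group means the pairing looked different. There 29 of 45 pairs correlated positively, with a median r of 0.422, and all 16 negative pairs held Elovl6 or Me1. Elovl6 and Mlxipl had r = -0.833 over group means and 0.347 within groups, and Me1 and Mlxipl had -0.911 over group means and 0.527 within groups. Elovl6 and Me1 thus followed the other genes from liver to liver inside a group and departed from them between groups. On day 24 Mlxipl averaged 318.5 in control livers, 330.8 at 30 mg/kg and 275.9 at 80 mg/kg, its highest mean at each dose. Me1 and Elovl6 had their lowest means on day 24 at each dose, control livers included. The correlations over group means thus hold differences between days as well as between doses. The group means share control and day, so these values too are a description.

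**Figure D3:**
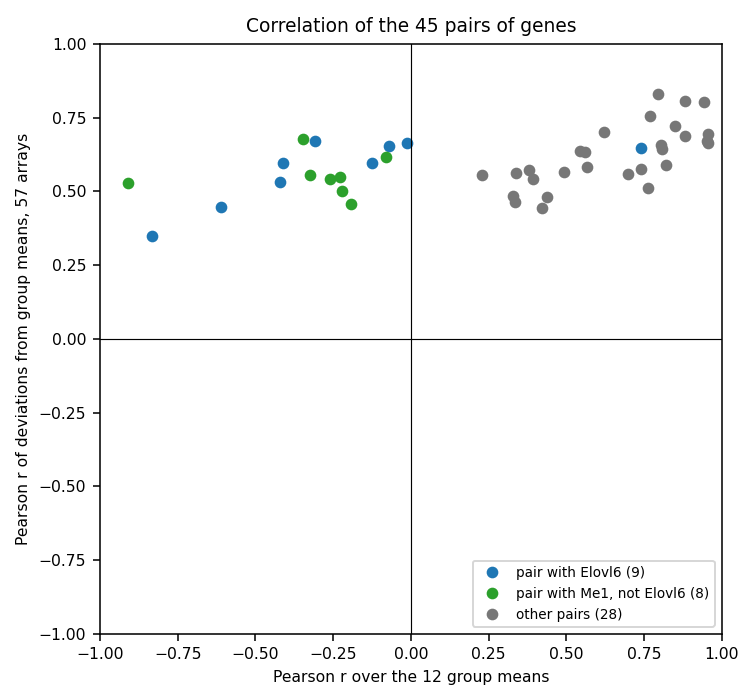
Each point is 1 of the 45 pairs of genes, with Pearson r over the 12 group means on the horizontal axis and r of deviations from group means over 57 arrays on the vertical axis. All pairs lie above 0 on the vertical axis, and the 16 pairs below 0 on the horizontal axis hold Elovl6 (blue) or Me1 (green).

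The same livers were at the low end in many of the genes. In 10 of the 12 groups 1 array was the lowest in at least 5 of the 10 genes. At 30 mg/kg on day 15, replicate 4 was the lowest of its 5 livers in all 10 genes, while it was the lowest in 23.8% of all genes. It read 1274 for Thrsp and 1129 for Scd, where the other 4 livers had at least 3001 and 2425. Replicate 3 at 30 mg/kg on day 24 was the lowest of 4 livers in 9 genes and in 25.7% of all genes, with 584 for Scd, where replicate 2 had 5038. Replicate 3 at 30 mg/kg on day 4 was the highest in 9 genes and in 18.5% of all genes. Control livers did the same, since replicate 5 on days 4 and 8 and replicate 3 on day 15 were each the lowest in 7 genes. At 80 mg/kg on day 15, no array was the lowest in more than 4 genes.

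Genes whose 12 group means most resembled those of each member were named as a description, by Pearson r among 10724 other genes. Pklr was most like Abhd14b (r = 0.986) and Apon (0.984), Thrsp most like Bphl (0.981) and Fggy (0.969), and Scd most like Lrp3 (0.977) and the fructose transporter gene Slc2a5 (0.962). Acly (0.956) and Srebf1 (0.934) were both most like Optn and next most like Kcnj15 (0.95 and 0.909), and Fasn was most like Sult2b1 (0.861) and Optn (0.85). Among the other members, the closest to Acly was Srebf1 (0.957) and the closest to Pklr was Thrsp (0.957). Acaca was most like Poteml2 (0.833) and Rab10 (0.824), and Mlxipl most like Dock5 (0.988) and Tle2 (0.986). Me1 was most like Tkt (0.949), an enzyme of the pentose phosphate pathway, and Sarnp (0.948), and Elovl6 most like Tctn3 (0.973) and Scly (0.955). Slc2a5 fell by 1.90 ± 0.25 at 80 mg/kg on day 15 and Kcnj15 changed by -2.51 ± 0.37. Both were picked for likeness over group means that include that day. Their changes thus largely follow from the choice and carry no test.

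The wider pathway was followed through lists set by role, on day 15 at 80 mg/kg, where 38.8% of all genes rose and 20.5% fell. Of 12 genes that supply carbon, NADPH and malonyl-CoA, 2 rose and 6 fell, with a median of -0.37. Khk, ketohexokinase, the entry of fructose, fell to 564 ± 109 at 80 mg/kg, against 1520 ± 94.0 in control livers (SD, n = 5 each), a change of -1.45 ± 0.10 with an adjusted p of 4.8e-17. Pfkfb1, the liver enzyme that sets fructose 2,6-bisphosphate, fell by 0.90 ± 0.17, and Acss2, which makes acetyl-CoA from acetate, fell by 0.64 ± 0.17. Pfkl, a phosphofructokinase (0.52 ± 0.15), and Mcat, the mitochondrial malonyl transferase (0.40 ± 0.082), rose, and under quantile normalization Pfkl did not pass (adjusted p = 0.0878). Khk had fallen by day 4 (-0.78), and on day 24 its change was -0.06 and did not pass.

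Of 11 other genes of elongation and desaturation, 8 fell and 1 rose, with a median of -0.45, where 20.5% of all genes fell and 38.8% rose. Elovl5, an elongase of polyunsaturated chains, fell by 1.18 ± 0.11 with an adjusted p of 6.18e-14, Cyb5r3, the cytochrome b5 reductase that supplies desaturases with electrons, fell by 1.09 ± 0.10, and Fads1, a front-end desaturase, fell by 0.91 ± 0.12. Elovl1, an elongase of very long chains, rose by 0.82 ± 0.091 with an adjusted p of 5.63e-11. The rise of Elovl6 thus stood beside a rise of Elovl1 and a fall of Elovl5. Of 15 genes of triglyceride and phospholipid assembly, 2 rose and 7 fell, with a median of -0.38. Lpin1 (-1.32 ± 0.43), the acyltransferase Agpat2 (-0.95 ± 0.12) and the acyl-CoA synthetase Acsl1 (-0.93 ± 0.10) fell, and Agpat3 (1.08 ± 0.14) and Dgat1 (0.39 ± 0.064), which acts in the last step to triglyceride, rose.

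**Figure D4:**
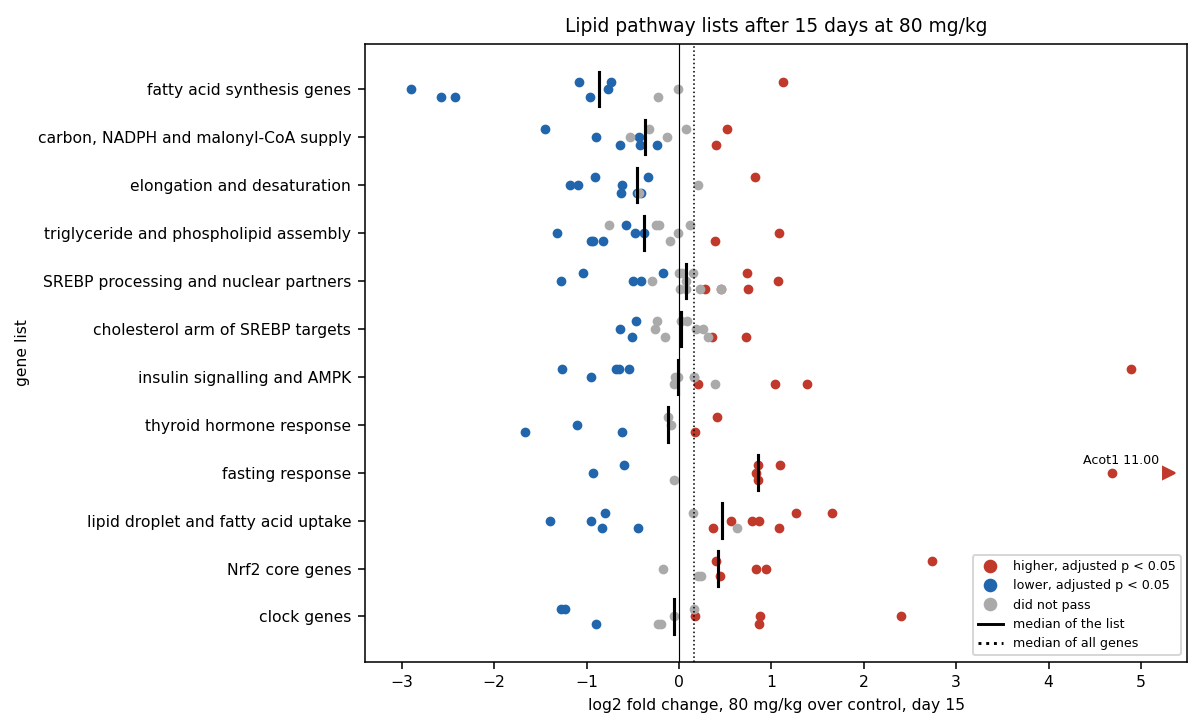
Log2 fold change at 80 mg/kg over control on day 15 for each gene of the 10 synthesis genes and of 11 related lists, coloured by call, with each list's median as a bar and the median of all genes as a dotted line. Acot1 lies off the scale at 11. The synthesis genes have the lowest median, -0.87, and the fasting list the highest, 0.85.

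Genes that process SREBP or work with it moved both ways on day 15, with 5 rises and 5 falls among 19 and a median of 0.08. Of all genes, 38.8% rose and 20.5% fell on that day. Mbtps2, the site-2 protease that frees SREBP from its membrane, rose by 1.07 ± 0.096, Cdk8 by 0.75 ± 0.075 and Nfyc, a subunit of the CCAAT-binding factor, by 0.74 ± 0.077. Insig2, which holds SREBP in the endoplasmic reticulum, fell by 1.04 ± 0.15, and Rxra fell by 1.28 ± 0.28 at signals of 11 ± 5.78 at 80 mg/kg, against 23.9 ± 4.36 in control livers. The cholesterol arm of SREBP targets was measured through 13 genes. Of these, 5 rose and none fell on day 4, when 18.3% of all genes rose and 9.19% fell, and on day 15, 2 rose and 3 fell with a median of 0.02. Sqle, squalene epoxidase, rose by 0.94 on day 4 and by 0.72 ± 0.24 on day 15, and Fdps, farnesyl diphosphate synthase, rose by 0.45 and 0.36 ± 0.13, the second no longer called at a common median (adjusted p = 0.185), while Dhcr7 (-0.64 ± 0.15) and Nsdhl (-0.51 ± 0.072) fell on day 15. The difference between the cholesterol and fatty acid genes was not tested.

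Genes of hormone and energy signals upstream moved both ways. Of 15 genes of insulin signalling and AMPK, 4 rose and 5 fell, where 38.8% of all genes rose and 20.5% fell. Trib3, a pseudokinase known to bind Akt, rose to 1860 ± 141 at 80 mg/kg, against 63.2 ± 8.57 in control livers, a change of 4.89 ± 0.34 with an adjusted p of 1.56e-17, and Igfbp1, which insulin represses, rose by 1.39 ± 0.35. Pik3r1 (-1.27 ± 0.27) and the AMPK subunit genes Prkaa2 (-0.95 ± 0.14) and Prkab1 (-0.68 ± 0.17) fell. Of 7 genes of thyroid hormone response, 2 rose and 3 fell, beside the same shares of all genes. The falls were Dio1, the deiodinase of liver, at 28.1 ± 8.54 at 80 mg/kg against 88.0 ± 22.0 in control livers, Slc16a10, a carrier of thyroid hormone, and Thrb, the main hormone receptor of liver, by 0.62 ± 0.085. The coregulator genes Ncoa1 (0.41 ± 0.072) and Ncor1 (0.17 ± 0.066) rose, and Ncor1 no longer passed at a common median (0.03) or under quantile normalization (0.07), and with the mean of its probe sets its change was -0.00.

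Of 9 genes of the fasting response, 6 rose and 2 fell, with a median of 0.85, where 38.8% of all genes rose and 20.5% fell. Fgf21, a fasting hormone of liver, rose by 4.69 ± 0.36 to 814 ± 360 at 80 mg/kg, against 29.9 ± 4.62 in control livers. Acot1, a cytosolic acyl-CoA thioesterase, rose to 1880 ± 383 at 80 mg/kg, against 1.9 ± 1.91 in control livers, where it lay below the median signal of all values, 17.09. Tat, tyrosine aminotransferase, rose by 1.09 ± 0.21. Pck1, the gluconeogenic enzyme that rises in fasting, fell by 0.60 ± 0.099, and Angptl4 fell by 0.93 ± 0.28. Whether fasting bore on the synthesis genes was not tested. At 30 mg/kg on day 15, 4 of the 9 rose, where 2.71% of all genes did so, among them Fgf21 (3.97) and Tat (1.24).

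Of 14 genes of lipid droplets and fatty acid uptake, 7 rose and 5 fell on day 15 at 80 mg/kg, with a median of 0.47. Of all genes, 38.8% rose and 20.5% fell on that day. The droplet coat gene Plin3 (1.66 ± 0.15), the lipase Pnpla2 (1.27 ± 0.15) and Lpl (1.08 ± 0.28) rose, and the bile acyl-CoA synthetase Slc27a5 (-1.40 ± 0.15) and the fatty acid binding protein Fabp1 (-0.95 ± 0.11) fell. Of 8 core genes of Nrf2, 5 rose and none fell, with a median of 0.42, and beside Srxn1 these were led by Nqo1 (0.94 ± 0.38, adjusted p = 0.0288) and Txnrd1 (0.83 ± 0.11). The call of Nqo1 ended at a common median (adjusted p = 0.0637) and without any of 4 single arrays. Of 11 clock genes, 4 rose and 3 fell, which is near those shares of all genes. Dbp stood at 51.0 ± 7.69 at 80 mg/kg against 9.91 ± 2.90 in control livers, below 17.09 in all control livers of that day. Nr1d2 rose by 0.88 ± 0.23 and Npas2 fell by 1.23 ± 0.23. Per1 (-1.28 ± 0.53) and Per2 (-0.90 ± 0.37) fell with adjusted p of 0.0343 each, calls that ended without any of 6 and 5 single arrays, and with the mean of its probe sets Per2 changed by 0.16.

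Markers of the tissue and of other cells moved beside the synthesis genes. All 8 measured hepatocyte markers were above 17.09 on all 57 arrays. On day 4 no hepatocyte marker passed, and their summed signal was 52240 to 55290 in livers at 80 mg/kg, against 43880 to 56470 in control livers. On the same day 5 of 6 biliary and progenitor markers rose, with sums of 331 to 546 at 80 mg/kg against 172 to 287 in control livers. All 6 markers of dividing cells rose, with sums of 589 to 933 at 80 mg/kg against 80.3 to 347 in control livers, and 2 of 7 macrophage markers rose, at 2478 to 2933 against 1761 to 2781. Of all genes, 18.3% rose on that day. On day 15, 38.8% of all genes rose and 20.5% fell. Of the 8 hepatocyte markers 6 fell on that day, with a median change of -0.38. Their sum was 39180 to 56530 at 80 mg/kg, against 50630 to 64330 in control livers. Macrophage markers rose in 6 of 7 on day 15, with sums of 3411 to 4411 at 80 mg/kg against 2083 to 2453 in control livers. They also rose in 6 of 7 on day 24, at 2177 to 2697 against 1244 to 2257, when 7.15% of all genes rose. All 6 measured biliary and progenitor markers rose on day 15, with sums of 985 to 1474 at 80 mg/kg against 226 to 294 in control livers, and all 6 markers of dividing cells rose, with sums of 377 to 697 against 58.6 to 163. Of 7 stellate markers 2 rose and 1 fell on day 15 and 5 rose on day 24, and of 4 endothelial markers 1 fell on day 15. The stellate and endothelial counts of day 15 were near or below the shares of all genes.

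Of 8 adipocyte markers, 3 could be tested and 2 of them rose on day 15, when 38.8% of all genes rose. Their sums were 397 to 626 at 80 mg/kg against 146 to 213 in control livers. The defining adipocyte genes Adipoq, Lep and Plin1 were near background, with 1, 0 and 0 arrays of 57 above 17.09. The part of changed cell composition in the falls of the synthesis genes was not tested.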

How the data were processed

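Liver RNA of each of the 57 rats was hybridised to 1 Affymetrix Rat 230 2.0 array. The deposited intensity values are MAS5 signals, per the submitters' processing notes (version not given in the sources used here), and every array has the same trimmed mean of 99.992. Each array stands for 1 animal, housed singly per the labels, so p-values measure the spread between animals. The number of arrays limits the precision.

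Probe sets were named through the platform annotation: 20832 had 1 gene symbol, 436 several and 9831 none. Those above 17.09, the median of all values, on at least 4 arrays were kept, and the one with the highest mean stood for a gene. Log2 signals without an offset were fitted with limma 3.58.1 in R 4.3.3 (12 group means, trended empirical Bayes, two-sided), with Benjamini-Hochberg adjustment over 10725 genes and a threshold of 0.05. The 2 dose effects of a day share their control livers. Fits were tested on simulated data.

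The members, lists, motifs and tests were chosen with earlier results of these data known. From each pathway list the text names called genes of day 15 at 80 mg/kg, at most 3 with the largest changes on the side of its median and at most 2 on the other side, and for each member the 2 genes whose group means were most like it. Alternatives were quantile normalization, a common array median, no filter, an offset of 3.31, the mean over probe sets, only the groups compared, the actin ratio as a covariate, the replicate number as a block, and each array left out.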

Additional observations from a re-analysis of the deposited data

Results flagged for a closer look

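Of 120 sets of livers (10 genes in 12 groups), 6 held a liver far from the others of its group by Dixon's test. That is no more than the about 5% that chance gives. The sets are not independent, since the same livers enter for each gene. Fasn read 1418 in 30 mg/kg day 8 replicate 1, with the other 4 livers at 654.9 to 829.5. Acaca read 234.9 in 30 mg/kg day 15 replicate 4, with the others at 396.6 to 428.6, and Elovl6 read 60.8 in the same liver, with the others at 192.5 to 219.1. Elovl6 read 236.8 in 80 mg/kg day 4 replicate 3, with the others at 137.4 to 154.2. Mlxipl read 127.6 in 80 mg/kg day 4 replicate 2, with the others at 98.05 to 103. Me1 read 486.9 in control day 8 replicate 2, with the others at 209 to 276.7.

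The effect of 80 mg/kg differed between days, by a test of the difference in limma, in 7 cases. From day 4 to day 15 it moved by -1.09 in Pklr and by -1.31 in Thrsp (log2). From day 15 to day 24 it moved by 2.65 in Scd, 2.37 in Pklr, 2.0 in Thrsp, 0.54 in Mlxipl and -1.88 in Elovl6.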

How the results depend on the processing

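Over the whole-data alternatives 1639 of 1688 single-gene values kept their direction where called and their side of the threshold, 22 lost a call, 25 gained one and 2 turned round, and over single arrays left out 2338 of 2400 kept theirs, 44 lost a call and 18 gained one. Values called in neither setting were not read for direction. The number of the 10 genes called at 80 mg/kg on day 24, 0 on the deposited scale, became 4 at a common array median, 2 with only the groups compared and 1 with the replicate block (Srebf1). All of these were falls, where 3359, 174 and 350 of all 10725 genes fell in the same settings. At 30 mg/kg on day 15 the number became 2 in place of 0 with only the groups compared, where 252 of all genes fell. Between the doses on day 4 it became 1 in place of 2 under quantile normalization and with only the groups compared, where 806 and 541 of all genes were lower. Between the doses on day 24 it became 1 in place of 0 (Mlxipl) at a common median, where 2780 of all genes were lower. In the change of the 80 mg/kg effect from day 4 to day 15 it became 0 in place of 2 with the actin covariate. It became 3 under quantile normalization and with only the groups compared. Of all genes, 825, 1119 and 1006 were called downward in these settings. With the mean of probe sets, Ncor1 changed by -0.00 and Per2 by 0.16. The cause of these moves was not tested. With 1 array left out the counts ran from 5 to 8, 7 to 9, 8 to 8 and 0 to 1 at 80 mg/kg on days 4, 8, 15 and 24, and from 0 to 0, 0 to 1, 0 to 0 and 0 to 1 at 30 mg/kg. The single calls came without 80 mg/kg replicate 5 on day 24 (Srebf1), control replicate 5 on day 8 (Acaca) and 30 mg/kg replicate 2 on day 24 (Thrsp). Between the doses they ran from 0 to 3 on day 4, 5 to 6 on day 8, 4 to 6 on day 15 and 0 to 0 on day 24, and 80 mg/kg replicate 5 gave the 0 on day 4. In the changes of effect they ran from 1 to 3 (day 4 to 15) and 5 to 6 (day 15 to 24) at 80 mg/kg, and from 0 to 1 (day 15 to 24) at 30 mg/kg, where Elovl6 passed without day 15 replicate 4 (-1.82). Among control livers they ran from 1 to 5.

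At a common median the median change of all genes at 80 mg/kg became -0.05, -0.07, 0.03 and -0.21 on days 4, 8, 15 and 24, beside 0.08, 0.15, 0.16 and 0.04 on the deposited scale, and rises and falls among all genes became 943 and 1596, 1772 and 2996, 3099 and 2790, and 267 and 3359, beside 1966 and 986, 3664 and 1782, 4160 and 2194, and 767 and 330. On that scale the 10 genes had medians of -0.73, -1.19, -1.0 and -0.49. Under quantile normalization rises and falls were 1689 and 1138, 2708 and 2178, 3323 and 2676, and 461 and 312. The replicate numbers did not pair the livers, since 36 same-numbered pairs had deviations correlated at -0.08 to 0.065, and beside Srebf1 on day 24 the replicate block changed 1 call, that of Elovl6 at 80 mg/kg on day 4 (0.87, adjusted p = 0.0487). Signals near 17.09 limit what can be read for Rxra, Dbp, Per1 and the control level of Acot1.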
